A study of Homo sapiens with 45 samples.

Results

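The replication-dependent histone genes of 4 human T-cell acute lymphoblastic leukaemia (T-ALL) lines are described here, gene by gene, in cells whose BAF chromatin remodelling complex was inhibited or targeted with guide RNAs. Members were taken by symbol (H2AC, H2BC, H3C or H4C followed by a digit, or H1-1 to H1-6) and by a TPM (the length-scaled share of transcripts) above 0 in at least 3 Jurkat libraries. This gave 62 of 68 matching symbols, out of 38557 genes in the deposited tables. There were 6 H1, 15 H2A, 17 H2B, 12 H3 and 12 H4 genes, among them H2BC20P, a transcribed pseudogene that the symbol rule takes in. Of the other 6 symbols, H2AC1, H2BC1, H2AC2P, H4C7 and H3C7 were at 0 TPM in every Jurkat library and H4C6 was above 0 in 1.

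Poly(A) RNA was sequenced from 45 libraries in 15 groups of 3, each labelled as a biological replicate, and the p-values measure the spread between these libraries. Cas9-expressing Jurkat cells, selected with puromycin for 4 days and collected 10 days after transduction, carried guides to SMARCA4 and SMARCA2 (gSMARCA4_A2), SMARCA4 (gSMARCA4), ARID1A and ARID1B (gARID1A_1B), ARID1A (gARID1A) or, as the control, the AAVS1 site (gAAVS1). BRM014 is an inhibitor of the SMARCA4 and SMARCA2 ATPases. Other Jurkat groups were kept in 1 uM BRM014 or, as the control, 0.01% DMSO for 6 h or 8 d, and TALL-1, CCRF-CEM and KOPT-K1 cells had the same BRM014 or DMSO doses for 6 h. Jurkat libraries were made with a non-directional kit from another RNA extraction than the directional libraries of the other lines, so that line, extraction and kit cannot be told apart between the 2 tables.

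Histones H2A, H2B, H3 and H4 form the protein core of the nucleosome and H1 binds the linker DNA. Their replication-dependent genes lie in clusters on chromosomes 1 and 6 and are transcribed mainly in S phase, when new DNA is packed. Their messages normally end in a conserved stem-loop bound by SLBP instead of a poly(A) tail, and a poly(A) library therefore holds only part of this RNA. Several histone genes can also be read through the stem-loop to a downstream polyadenylation site, which has been described in cells that leave the cell cycle and differentiate.

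The stem-loops below belong to members that the results turn on, since the loop is the element that sets whether a message is normally free of a tail. They are written 5′ to 3′ as DNA from GENCODE 29 transcripts (GRCh38), with the 16 bases of the stem-loop in capitals. Of 58 members found by name in that annotation, 27 had such a sequence in a transcript, and in 21 of those a transcript ran more than 100 bases past it.
H2AC6, chr6:26124664-26124689, plus strand: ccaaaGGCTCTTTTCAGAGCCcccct
H2BC4, chr6:26123467-26123492, minus strand: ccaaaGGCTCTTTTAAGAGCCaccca
H2BC21, chr1:149886183-149886208, minus strand: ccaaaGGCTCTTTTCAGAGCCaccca
In GENCODE 29 the annotated H2AC6 transcript ran 1128 bases past its stem-loop, and that of H2BC21 ran 1729 bases past it, against 116 bases in H2BC4. The contrast of H2AC6 with H2BC4 depends on the annotation. In RefSeq, H2AC6 ends at 26124690, beside its loop, and H2BC4, on the minus strand, reaches 26113170, far past its loop. The deposited gene lengths were 546 bases for H2AC6 and 438 bases for H2BC4. The deposited value of a gene does not separate transcripts that end at the loop from longer ones.

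Promoters of 3 members are shown because the values below contrast them: H2AC6 and H2BC12 had among the largest increases and H2BC13 had no call. They are RefSeq promoters of GRCh38.p14, running from 250 bases before to 50 bases after the gene's start. Capitals mark the octamer ATTTGCAT (the site of POU2F1), the CCAAT box and TATAAA, on either strand.
H2AC6, chr6:26123922-26124221, plus strand: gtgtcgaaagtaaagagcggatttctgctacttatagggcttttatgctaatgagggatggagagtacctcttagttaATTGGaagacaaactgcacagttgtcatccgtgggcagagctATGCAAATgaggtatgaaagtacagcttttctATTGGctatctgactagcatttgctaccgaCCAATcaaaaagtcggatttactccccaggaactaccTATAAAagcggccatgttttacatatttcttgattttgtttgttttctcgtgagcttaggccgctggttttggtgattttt
H2BC12, chr6:27146809-27147108, minus strand: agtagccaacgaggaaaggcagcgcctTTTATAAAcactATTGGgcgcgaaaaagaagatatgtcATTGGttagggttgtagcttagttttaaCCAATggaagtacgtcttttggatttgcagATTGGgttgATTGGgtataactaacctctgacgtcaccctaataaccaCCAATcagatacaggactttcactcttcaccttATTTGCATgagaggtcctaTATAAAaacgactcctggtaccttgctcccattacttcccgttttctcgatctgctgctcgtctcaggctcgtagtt
H2BC13, chr6:27807880-27808179, minus strand: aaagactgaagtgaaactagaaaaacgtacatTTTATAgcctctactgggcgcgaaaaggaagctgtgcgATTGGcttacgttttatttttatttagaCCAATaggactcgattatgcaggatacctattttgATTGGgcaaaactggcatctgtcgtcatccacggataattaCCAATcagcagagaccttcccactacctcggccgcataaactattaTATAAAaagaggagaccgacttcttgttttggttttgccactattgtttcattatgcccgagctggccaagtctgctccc
The H2AC6 window shares 255 bases with that of the divergent gene H2BC4. The octamer was in 13 of 16 H2B and 10 of 14 H2A promoters, in 1 of 10 H3 promoters and in no H1 or H4 promoter, against 1.8% of 27305 promoters in the table. CCAAT was in 48 of 56 member promoters (85.7%) and in 35.7% of all, and TATAAA in 37 of 56 (66.1%) and in 12.0% of all. A match is a description of these windows and not a measured binding site.

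Histone genes as a class were low in these libraries. The 62 members summed to 251 to 305 TPM in gSMARCA4_A2, 137 to 152 TPM in gSMARCA4, 97.9 to 104 TPM in gARID1A_1B, 73.7 to 82.1 TPM in gARID1A and 91.1 to 92.0 TPM in gAAVS1. In drug-treated Jurkat cells the sum was 114 to 119.8 TPM with BRM014 and 62.4 to 67.5 TPM with DMSO at 8 d, and 93.4 to 97.6 TPM with BRM014 and 68.7 to 83.7 TPM with DMSO at 6 h. CCRF-CEM cells had 317 to 322 TPM with BRM014 and 250.3 to 269.8 TPM with DMSO, and KOPT-K1 cells had 247 to 267 TPM with BRM014 and 212 to 299 TPM with DMSO. The BRM014 and DMSO libraries did not overlap in Jurkat or CCRF-CEM cells. They overlapped in KOPT-K1 cells and in TALL-1 cells, whose sums are given below. No library of any guide group overlapped with gAAVS1, whose libraries spanned only 91.1 to 92.0 TPM. The gSMARCA4_A2, gSMARCA4 and gARID1A_1B libraries were above gAAVS1 and the gARID1A libraries were below it. These sums are levels and carry no test of their own.

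**Figure D1:**
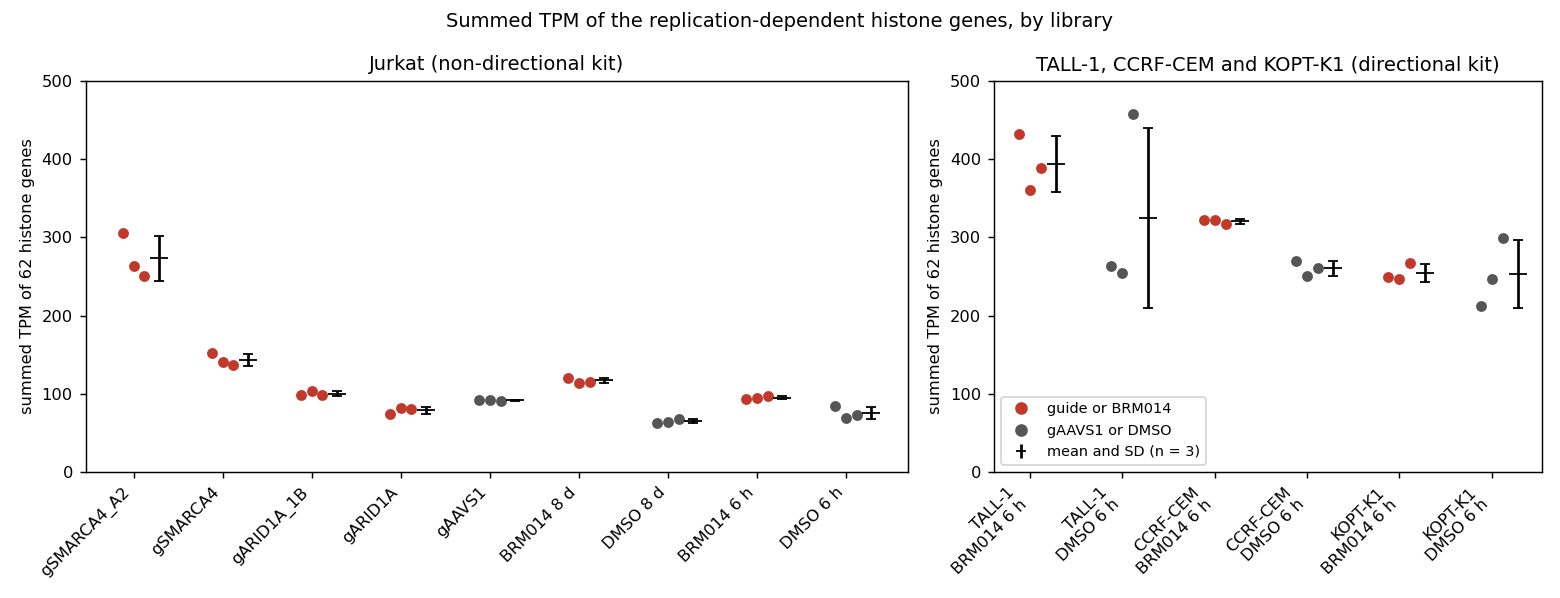
Summed TPM of the 62 histone genes in each library (points), with the group mean and SD (n = 3) beside them; red marks guide or BRM014 groups and grey marks gAAVS1 or DMSO. The gSMARCA4_A2 libraries sit between 251 and 305 TPM, above the gAAVS1 libraries at 91.1 to 92.0 TPM, and the third TALL-1 DMSO library stands at 458 TPM, above the other TALL-1 DMSO libraries at 255 and 263 TPM.

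No member averaged 10 TPM over the 27 Jurkat libraries. The highest were H2AC6 (mean 8.32 TPM, range 2.59 to 34.5), H2BC12 (6.88, range 2.06 to 22.3), H1-2 (6.48, range 2.06 to 25.8), H2BC20P (6.46, range 2.34 to 12.0), H2BC13 (5.87, range 3.91 to 8.13), H2BC4 (5.19, range 2.07 to 15.4), H2BC5 (5.00, range 1.94 to 16.0) and H2AC19 (4.52, range 1.22 to 11.4). Such values rest on few reads, 18 to 281 for H2AC6 in a library and 4 to 76 for H2BC11. In the other lines the order differed, led by H2BC9 (mean 50.5 TPM), H2BC12 (34.2), H1-2 (22.4), H4C11 (19.7), H4C12 (18.8), H2AC20 (12.4), H2BC21 (10.6) and H2AC6 (8.51). At least 1 TPM in 3 libraries was reached by 42 members in Jurkat and 56 in the other lines, and these were tested with limma on log2(TPM + 1) at a Benjamini-Hochberg adjusted p under 0.05 over all genes. Fold changes below are on that scale, which understates the change of low genes, and ± after them is the standard error.

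In gSMARCA4_A2 cells 28 of the 42 tested members rose and none fell. Over all 17936 genes tested, 40.9% rose and 21.1% fell, and the median log2 fold change was 0.98 over the members and 0.11 over all genes. Called genes came from every family: 8 of 10 H2A, 10 of 12 H2B, 6 of 9 H4, 3 of 9 H3 and 1 of 2 H1 genes. Of the members without a call, 1 was lower at an unadjusted p under 0.05, and limma-voom on recovered reads called 28 higher and 1 lower. Because H2BC18, H4C4 and H1-3 passed the filter only through this group, the count over the other 39 is given too, with 26 higher. The counts by family include these genes. With no filter all 62 could be tested, and 34 rose and none fell, where 33.9% of all genes rose.

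H2AC6, which encodes an H2A, had 34.5, 27.3 and 28.4 TPM in gSMARCA4_A2 cells and 3.78, 4.05 and 4.08 TPM in gAAVS1 cells (250 to 281 reads against 24 to 43). It rose by 2.64 ± 0.11 on the log2 scale (limma, adjusted p = 3.00e-14). The groups lay far apart, and this was the largest change among the members on the log2(TPM + 1) scale. H1-2, a linker histone, had 25.8, 19.3 and 19.3 TPM in gSMARCA4_A2 cells and 4.81, 3.37 and 3.96 TPM in gAAVS1 cells. It rose by 2.15 ± 0.14 (limma, adjusted p = 3.49e-11), again with no overlap. H2AC7, another H2A gene, had 8.29, 6.00 and 6.33 TPM in gSMARCA4_A2 cells and 0.843, 0.991 and 0.711 TPM in gAAVS1 cells. H2AC7 rose by 2.08 ± 0.15. RefSeq annotates it as overlapping H3C4, so reads of these genes may not be separated.

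H2BC12, an H2B gene, had 22.3, 21.1 and 19.4 TPM in gSMARCA4_A2 cells and 4.75, 3.92 and 4.50 TPM in gAAVS1 cells (log2 fold change 2.03 ± 0.09). H3C10, which encodes H3, had 10.6, 8.59 and 7.61 TPM in gSMARCA4_A2 cells and 1.82, 1.60 and 0.876 TPM in gAAVS1 cells (2.04 ± 0.19). Every gSMARCA4_A2 library was above every gAAVS1 library for both genes. H2BC4, which faces H2AC6 across the promoter shown above, had 14.9, 15.4 and 11.3 TPM in gSMARCA4_A2 cells and 4.51, 4.04 and 5.20 TPM in gAAVS1 cells (1.41 ± 0.17). H2BC5 had 16.0, 14.8 and 11.5 TPM in gSMARCA4_A2 cells and 2.87, 3.93 and 3.45 TPM in gAAVS1 cells (1.77 ± 0.16). H2BC20P and H2AC19, the other abundant members, rose by less, 0.66 ± 0.15 and 1.35 ± 0.17. The largest H4 change on the log2(TPM + 1) scale was that of H4C8, with a mean of 6.99 TPM in gSMARCA4_A2 cells and 1.70 TPM in gAAVS1 cells (1.57 ± 0.18). H4C4, a lower gene, had means of 1.51 TPM in gSMARCA4_A2 cells and 0.125 TPM in gAAVS1 cells (1.16 ± 0.20).

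The other 14 members had no call. H2BC13 had 6.08, 4.79 and 4.80 TPM in gSMARCA4_A2 cells and 7.40, 3.91 and 5.95 TPM in gAAVS1 cells, with a log2 fold change of -0.09 ± 0.22. The groups overlapped. H3C12, H2AC14 and H3C15 had log2 fold changes of -0.04 ± 0.22, 0.13 ± 0.23 and -0.16 ± 0.21. H4C2 had the lowest value, -0.55 ± 0.25 (adjusted p = 0.0591 in limma), at means of 0.304 TPM in gSMARCA4_A2 and 0.896 TPM in gAAVS1 cells.

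**Figure D2:**
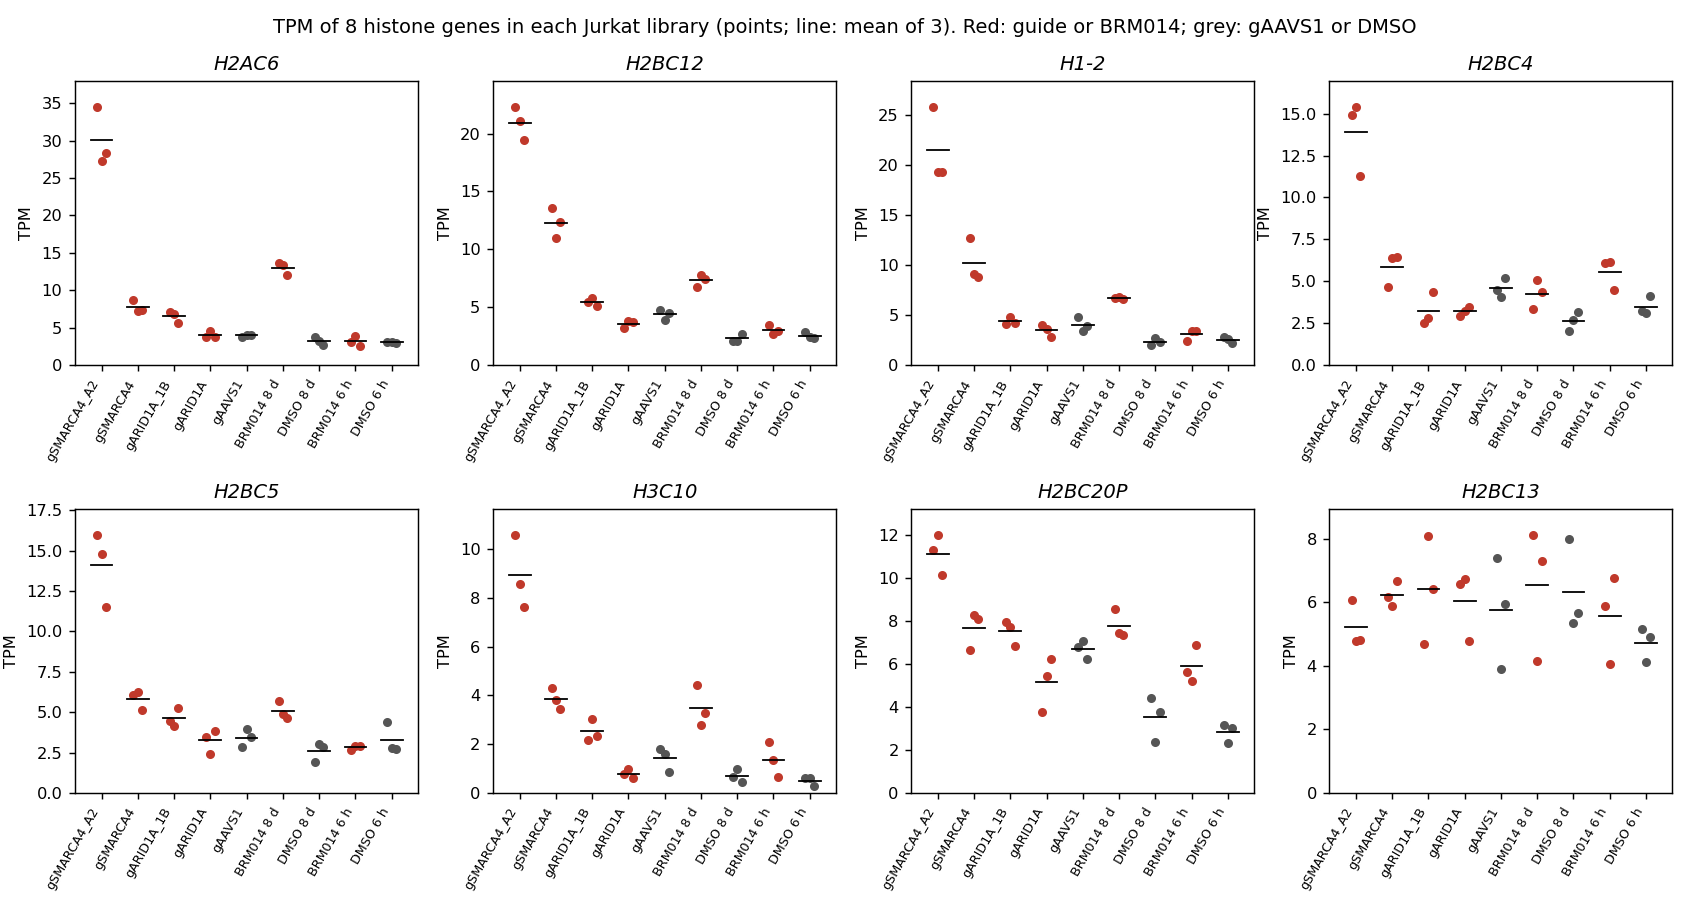
TPM of 8 histone genes in each Jurkat library (points) with the mean of 3 (line); groups run from guide or BRM014 to their control within each experiment. For 7 of the genes the gSMARCA4_A2 libraries lie above all gAAVS1 libraries, whereas the H2BC13 libraries range over 3.91 to 8.13 TPM and these groups overlap.

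The members were also split by features that the fit did not use, as a description. A list of 7 members that are known for polyadenylated transcripts in other human cells (H2AC6, H2BC4, H2BC5, H2BC11, H2BC12, H2BC21 and H1-2) had 7 of 7 higher in gSMARCA4_A2 cells with a median of 1.77, while 21 of the 35 other tested members were higher with a median of 0.63. This list was chosen with earlier results of these data known, so its counts here and below are no independent support. It holds H2AC6, H2BC12, H1-2, H2BC4 and H2BC5, which are among the most abundant members in Jurkat. The medians are not matched for level, and the log2(TPM + 1) scale understates the change of low genes. These 7 genes summed to 129, 110.2 and 105 TPM in gSMARCA4_A2 cells and 25.0, 22.8 and 24.0 TPM in gAAVS1 cells. The remaining 55 members summed to 176, 153 and 147 TPM in gSMARCA4_A2 cells and 66.4, 69.3 and 67.1 TPM in gAAVS1 cells. Both parts of the family were therefore higher in every gSMARCA4_A2 library. Members with the octamer had 12 of 15 called higher, and members without it 15 of 24. By position, 10 of 14 genes near 26 Mb of chromosome 6, 11 of 17 near 27 Mb and 7 of 11 on chromosome 1 were higher, against 28 of 42 overall. These splits were not repeated without H2BC18, H4C4 and H1-3, which passed the filter only through gSMARCA4_A2.

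The S phase genes moved the other way in the same cells. Of 20 listed genes of DNA replication, among them PCNA, the MCM helicase genes and SLBP, 20 fell in gSMARCA4_A2 cells, with a median log2 fold change of -0.57, and 11 of 12 genes of G2 and M phase fell. The 20 S phase genes summed to 2206, 2323 and 2306 TPM in gSMARCA4_A2 cells and 3402, 3396 and 3402 TPM in gAAVS1 cells. RNAs made without a poly(A) tail, which would enter a poly(A) library by carry-over, had 1 call among 18 tested genes, with a median of 0.11. The gene called was RN7SK, the RNA that restrains P-TEFb, which rose by 1.01 ± 0.34. The 20 listed RNAs summed to 724, 692 and 670.4 TPM in gSMARCA4_A2 cells and to 561, 951 and 674 TPM in gAAVS1 cells, which overlap.

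In gSMARCA4 cells 15 of 42 members rose and none fell, where 25.1% of all genes rose and 15.8% fell. No member was lower at an unadjusted p under 0.05 either, and limma-voom called 15 higher and none lower. The median was 0.26 over the members and 0.04 over all genes. H2BC12 led with 13.6, 11.0 and 12.4 TPM in gSMARCA4 cells against 4.75, 3.92 and 4.50 TPM in gAAVS1 cells (1.31 ± 0.09), followed by H1-2 with 12.7, 9.13 and 8.82 TPM in gSMARCA4 cells against 4.81, 3.37 and 3.96 TPM in gAAVS1 cells (1.14 ± 0.14). H3C10 had 4.31, 3.80 and 3.44 TPM in gSMARCA4 cells against 1.82, 1.60 and 0.876 TPM in gAAVS1 cells (1.01 ± 0.19). All 3 were above the control in every library. H2AC6 had 8.72, 7.24 and 7.40 TPM in gSMARCA4 cells and 3.78, 4.05 and 4.08 TPM in gAAVS1 cells, and rose by 0.82 ± 0.11. Of the S phase list, 14 of 20 genes fell.

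The libraries labelled as targeting SMARCA2 in addition to SMARCA4 were also set directly against those labelled gSMARCA4. They had 26 of 42 members higher and none lower, where 26.5% of all genes rose and 12.3% fell, with a median of 0.54 over the members and 0.07 over all genes. Without H2BC18, H4C4 and H1-3, which passed the filter only through gSMARCA4_A2, 24 of 39 members were higher and none lower. Limma-voom called 22 higher and none lower, and no member was lower at an unadjusted p under 0.05. H2AC6 had 34.5, 27.3 and 28.4 TPM in gSMARCA4_A2 cells and 8.72, 7.24 and 7.40 TPM in gSMARCA4 cells (1.82 ± 0.11). H2AC7 had 8.29, 6.00 and 6.33 TPM in gSMARCA4_A2 cells and 2.22, 1.69 and 1.54 TPM in gSMARCA4 cells (1.48 ± 0.15), and H4C8 rose by 1.20 ± 0.18. H2BC12 differed by 0.72 ± 0.09, with 19.4 to 22.3 TPM in gSMARCA4_A2 cells and 11.0 to 13.6 TPM in gSMARCA4 cells. As for the targets themselves, SMARCA4 had 47.5 to 52.2 TPM in gSMARCA4_A2 cells, 42.3 to 45.3 TPM in gSMARCA4 cells and 95.5 to 100.2 TPM in gAAVS1 cells. SMARCA2 had 22.1 to 22.6 TPM in gSMARCA4_A2 cells, 25.4 to 27.5 TPM in gSMARCA4 cells and 20.8 to 22.7 TPM in gAAVS1 cells, so its transcript level does not check that label, and ARID1A in gARID1A_1B cells (95.9 to 106 TPM, against 93.8 to 95.1 TPM in gAAVS1) does not check that one.

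In gARID1A_1B cells 4 of 42 members rose and 1 fell, fewer than over all genes, of which 17.0% rose and 23.1% fell. H2AC6 had 7.13, 6.81 and 5.63 TPM in gARID1A_1B cells and 3.78, 4.05 and 4.08 TPM in gAAVS1 cells (0.59 ± 0.11, adjusted p = 1.94e-04 in limma). H3C10 (0.55 ± 0.19) and H2AC15 (0.48 ± 0.16) were the next 2, and H2BC12 rose by 0.26 ± 0.09. H2BC4, beside H2AC6 in the genome, was lower with 2.50, 2.79 and 4.36 TPM in gARID1A_1B cells and 4.51, 4.04 and 5.20 TPM in gAAVS1 cells (-0.43 ± 0.17), and these groups overlapped. The higher count was 2 without gAAVS1 replicate 2 or 3 and 1 without gARID1A_1B replicate 2, and the lower count was 0 under 4 of the 6 left-out libraries. In gARID1A cells no member rose and 3 fell, where 7.72% of all genes rose and 13.2% fell. None was higher at an unadjusted p under 0.05, and limma-voom called none higher and 1 lower. The 3 were H2BC11 (-0.62 ± 0.22), H2BC15 (-0.57 ± 0.20) and H2AC7 (-0.47 ± 0.15). H2BC11 had 0.883, 1.31 and 1.95 TPM in gARID1A cells and 3.40, 2.50 and 2.05 TPM in gAAVS1 cells. H2BC15 had 0.676, 0.702 and 0.913 TPM in gARID1A cells and 1.53, 2.11 and 1.27 TPM in gAAVS1 cells, and H2AC7 had 0.119, 0.722 and 0.230 TPM in gARID1A cells and 0.843, 0.991 and 0.711 TPM in gAAVS1 cells. The H2AC7 groups overlapped, and no call of the 3 was kept through every left-out library. None was left without gAAVS1 replicate 1, gAAVS1 replicate 2 or gARID1A replicate 1, and 1 without gARID1A replicate 2.

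Between the ARID groups, 8 of 42 members were higher in gARID1A_1B than in gARID1A cells and none was lower, where 10.3% of all genes rose and 10.6% fell. At an unadjusted p under 0.05 there was 1 lower member, and limma-voom called 9 higher and none lower. H3C10 had 2.19, 3.05 and 2.35 TPM in gARID1A_1B cells and 0.770, 1.00 and 0.619 TPM in gARID1A cells (0.97 ± 0.19). H2BC15 had 2.71, 2.60 and 1.65 TPM in gARID1A_1B cells and 0.676, 0.702 and 0.913 TPM in gARID1A cells (0.90 ± 0.20). H2AC6 had 7.13, 6.81 and 5.63 TPM in gARID1A_1B cells and 3.78, 4.53 and 3.75 TPM in gARID1A cells (0.58 ± 0.11). The count was 5 without gARID1A_1B replicate 2. All 4 guide comparisons with gAAVS1 share its 3 libraries, so their values are set side by side without an overlap.

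**Figure D3:**
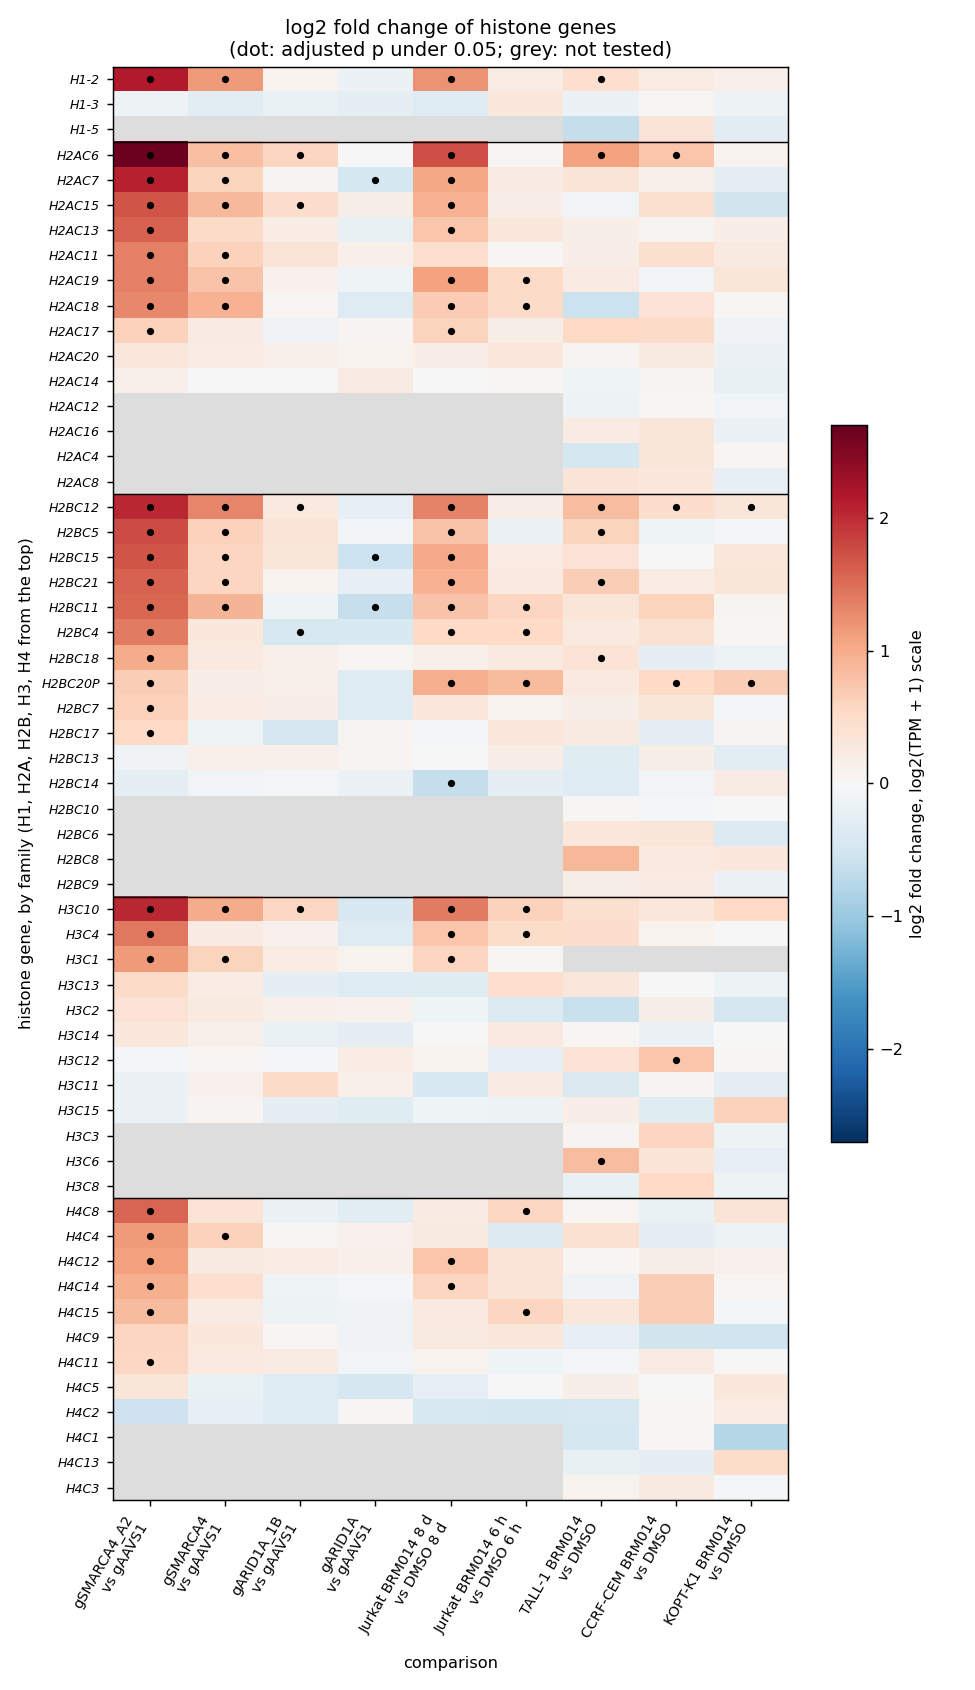
log2 fold changes on the log2(TPM + 1) scale of every histone gene tested (rows, by family) in 9 comparisons with a control (columns); a dot marks an adjusted p under 0.05 and grey a gene below the filter. Dots mark 28 of 42 genes in the gSMARCA4_A2 column and 21 of 42 in the column of 8 d BRM014, and are few in the 6 h columns of the other lines (2 to 7 of 56).

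With BRM014 for 8 d, 20 of 42 members rose and 1 fell, where 36.9% of all genes rose and 23.0% fell. The median was 0.37 over the members and 0.08 over all genes, and with no filter 20 of 62 rose, where 25.8% of all genes did. H2AC6 had 13.7, 13.4 and 12.0 TPM with BRM014 and 3.73, 3.23 and 2.69 TPM with DMSO (1.74 ± 0.11, adjusted p = 1.43e-11 in limma). H3C10 had 4.41, 2.80 and 3.26 TPM with BRM014 and 0.638, 0.967 and 0.465 TPM with DMSO (1.41 ± 0.19). H2BC12 had 6.78, 7.79 and 7.45 TPM with BRM014 and 2.13, 2.06 and 2.73 TPM with DMSO (1.34 ± 0.09). The treated libraries were above the control libraries for all 3. H1-2 rose by 1.21 ± 0.14, with 6.71, 6.77 and 6.62 TPM with BRM014 and 2.06, 2.68 and 2.31 TPM with DMSO. H2BC14 was the member that fell, with 0.413, 0.470 and 0.494 TPM with BRM014 and 0.845, 1.17 and 1.97 TPM with DMSO (-0.65 ± 0.20), on 3 to 12 reads a library.

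These drug libraries share none with the guide experiment. Each of the 20 members called higher at 8 d was also among the 28 called higher in gSMARCA4_A2 cells (100% of the first list, 71.4% of the second). Over all genes tested, 5314 were higher in both, which was 80.4% of the 6612 higher at 8 d and 72.4% of the 7337 higher in gSMARCA4_A2 cells. Across the 42 members tested, the log2 fold changes in gSMARCA4_A2 cells and at 8 d had a Pearson r of 0.89 and a Spearman rho of 0.90, against 0.79 and 0.77 over all genes. With the 6 h effect in place of the 8 d effect, r was 0.34 and rho 0.27 over the members, against 0.41 and 0.38 over all genes. These are descriptions over genes that share libraries. The overlap and the correlations include H2BC18, H4C4 and H1-3, which passed the filter only through gSMARCA4_A2, and were not repeated without them. The known polyadenylated genes were 7 of 7 higher with a median of 0.94, and 13 of the 35 others were higher with a median of 0.24. The S phase list had 16 of 20 genes lower and none higher at 8 d (median -0.41), and 4 of 20 had no call. Non-polyadenylated RNAs, with the RN7SL genes included, summed to 512, 585 and 300.4 TPM with BRM014 and 679, 504 and 609 TPM with DMSO. These sums were not higher with the drug.

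**Figure D4:**
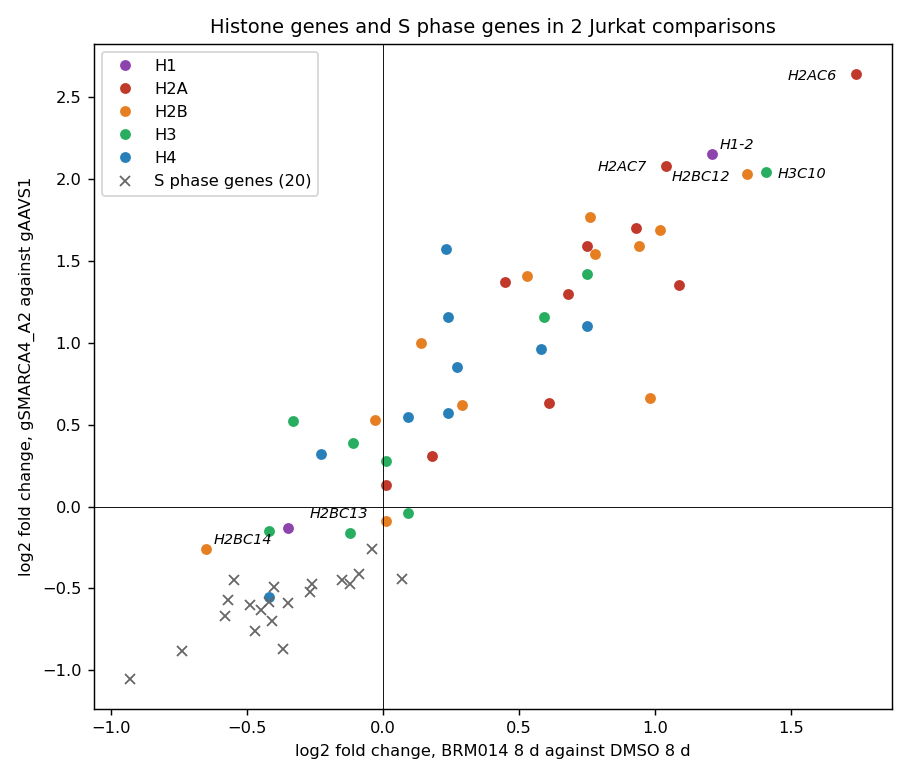
log2 fold change of each tested histone gene (points, coloured by family) with BRM014 for 8 d (x axis) and in gSMARCA4_A2 cells (y axis), with 20 S phase genes as crosses. Most histone genes lie at the upper right, led by H2AC6 at 1.74 and 2.64, and most S phase genes lie at the lower left, with medians of -0.41 and -0.57.

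After 6 h of BRM014 in Jurkat cells, 9 of 42 members rose and none fell, a smaller share than the 26.8% of all genes that rose, while 20.7% of all genes fell. The medians were 0.23 over the members and 0.04 over all genes. No member was lower at an unadjusted p under 0.05, and limma-voom called 8 higher and none lower. H2BC20P had 5.61, 5.22 and 6.89 TPM with BRM014 and 3.16, 2.34 and 3.01 TPM with DMSO (0.85 ± 0.15, adjusted p = 8.62e-05 in limma). H3C10 had 2.09, 1.34 and 0.665 TPM with BRM014 and 0.598, 0.607 and 0.285 TPM with DMSO (0.62 ± 0.19), and H2BC11 had 2.21, 3.52 and 1.31 TPM with BRM014 and 1.91, 0.597 and 1.12 TPM with DMSO (0.59 ± 0.22). The H2BC11 groups overlapped, and those of H2BC20P and H3C10 did not. H2AC6 had no call, with 3.06, 3.88 and 2.59 TPM with BRM014 and 3.11, 3.15 and 2.96 TPM with DMSO. At this time 11 of 20 S phase genes were higher and 3 were lower. Without the third DMSO library the count was 5, and with only the 6 h groups in the fit it was also 5.

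The change between the times was tested directly. The BRM014 effect was larger at 8 d than at 6 h for 10 of 42 members and smaller for 1, where 25.7% and 18.5% of all genes differed in these directions. H2AC6 differed by 1.72 ± 0.16, H2BC12 by 1.16 ± 0.13, H1-2 by 1.02 ± 0.20, H2BC5 by 0.91 ± 0.22, H2BC15 by 0.83 ± 0.28, H2AC7 by 0.82 ± 0.21, H3C10 by 0.78 ± 0.27, H2AC15 by 0.76 ± 0.23, H2BC21 by 0.68 ± 0.16 and H2AC17 by 0.45 ± 0.17. H1-3, a linker histone near the filter, differed by -0.64 ± 0.22. Of the known polyadenylated list 5 of 7 were among the genes with a larger effect at 8 d. The culture time and the control libraries differ between the 2 times as well.

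In the other lines treatment lasted 6 h and few histone genes were called. Log2 fold changes were positive for 43 of 56 members in CCRF-CEM, 38 in TALL-1 and 28 in KOPT-K1 cells. The medians were 0.20, 0.16 and -0.01 over the members, against 0.05, 0.03 and 0.04 over all genes. In TALL-1 cells 7 of 56 members rose and none fell, where 26.6% of all genes rose and 19.3% fell. At an unadjusted p under 0.05 there was 1 lower member, and limma-voom called 6 higher and 1 lower. H2AC6 had 18.3, 15.4 and 26.3 TPM with BRM014 and 7.87, 7.47 and 11.2 TPM with DMSO (1.08 ± 0.26). H2BC12 had 51.1, 50.9 and 45.9 TPM with BRM014 and 23.6, 31.2 and 26.8 TPM with DMSO (0.84 ± 0.12), and H3C6 had 2.33, 3.00 and 5.33 TPM with BRM014 and 1.43, 0.929 and 2.14 TPM with DMSO (0.84 ± 0.27). None of these groups overlapped. H2BC21 (0.67 ± 0.17), H2BC5 (0.61 ± 0.17), H1-2 (0.46 ± 0.14) and H2BC18 (0.37 ± 0.14) made up the rest, so that 5 of the 7 known polyadenylated genes were called and 2 of the 49 others.

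The third TALL-1 DMSO library stood apart. Its 62 members summed to 458 TPM, above the other DMSO libraries (263 and 255 TPM) and above the BRM014 libraries (432, 360.0 and 389 TPM). RNAs without a poly(A) tail were high in the same library: leaving out the RN7SL genes, 18 of them summed to 386 TPM in it, to 89.5 and 105 TPM in the other DMSO libraries and to 104, 88.1 and 80.2 TPM in the BRM014 libraries. The 7 known polyadenylated genes did not stand out there (113 TPM, against 102 and 103 TPM), and the other 55 did (345 TPM, against 161 and 152 TPM). Cell cycle genes differed in this library as well. Each listed G2 and M phase gene was lower in it than in the other DMSO libraries, such as PLK1 (189 TPM, against 257 and 305 TPM). E2F1 was higher (185 TPM, against 134 and 132 TPM). The third BRM014 library differed from the other BRM014 libraries in the same directions (PLK1 156 TPM against 212 and 260.0 TPM, E2F1 149.8 TPM against 106 and 112 TPM). The parts of RNA selection and of the cell cycle in these values were not tested. Without this library 13 of 56 members were higher in TALL-1 cells and none lower, where 23.9% of all genes rose, and the median moved to 0.44 over the members, against 0.16 with it. Of the 49 genes outside the polyadenylated list, H2BC17 (0.76 ± 0.18), H3C4 (0.85 ± 0.22) and H2BC6 (0.68 ± 0.22) were then among those called. When the second DMSO library was left out instead, 4 members were higher.

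**Figure D5:**
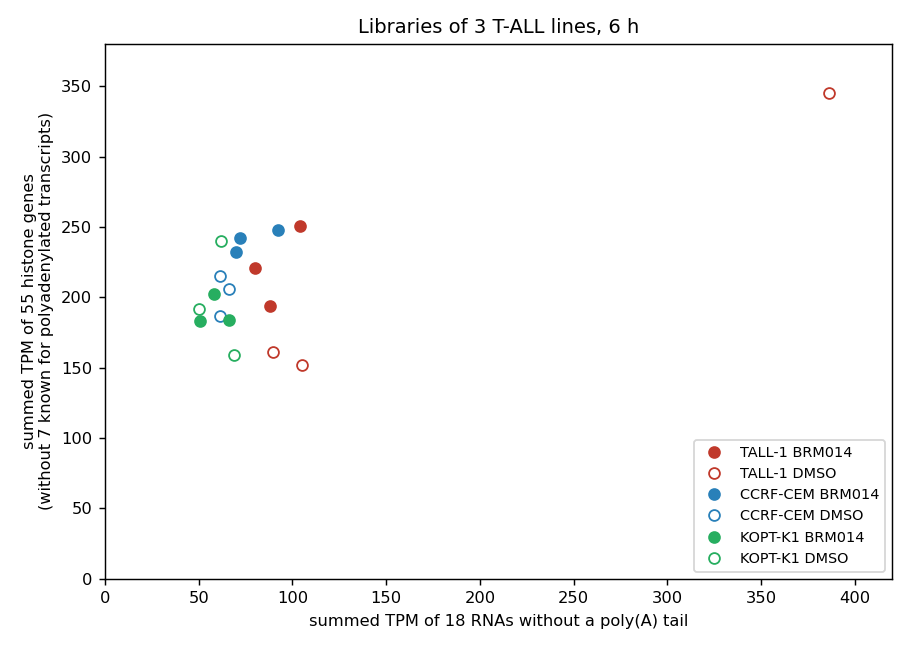
Summed TPM of 55 histone genes (y axis, without the 7 known for polyadenylated transcripts) against the summed TPM of 18 RNAs without a poly(A) tail (x axis, without the RN7SL genes) in each library of 3 lines; filled points are BRM014 and open points DMSO. The third TALL-1 DMSO library lies at 386 and 345 TPM, away from the other 17 libraries, which lie between 50.1 and 105 TPM on the x axis.

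CCRF-CEM cells had 4 of 56 members higher with BRM014 and none lower, where 28.9% of all genes rose and 20.9% fell. No member was lower at an unadjusted p under 0.05, and limma-voom called 3 higher and none lower. H2AC6 had 10.8, 10.7 and 6.46 TPM with BRM014 and 5.32, 7.12 and 3.33 TPM with DMSO (0.74 ± 0.26). The groups overlapped, and H2AC6 was higher with BRM014 in each of the 3 same-numbered pairs. H3C12 rose by 0.74 ± 0.28 and H2BC20P by 0.53 ± 0.15, with 9.70, 10.6 and 6.98 TPM with BRM014 and 6.19, 5.26 and 6.25 TPM with DMSO for H2BC20P. H2BC12 had 41.7, 50.3 and 37.0 TPM with BRM014 and 26.1, 33.6 and 31.5 TPM with DMSO (0.48 ± 0.12). Same-numbered CCRF-CEM libraries deviated together, and with the replicate number as a block 6 members were higher and none lower. H2AC18, H2BC4 and H2BC9 were then called, and H3C12 was not (adjusted p = 0.0801 in limma). KOPT-K1 cells had 2 of 56 higher and none lower, where 22.9% of all genes rose and 15.2% fell. No member was lower at an unadjusted p under 0.05, and limma-voom called none in either direction. H2BC20P had 2.84, 2.91 and 3.17 TPM with BRM014 and 1.37, 1.53 and 1.59 TPM with DMSO (0.67 ± 0.15), on 13 to 16 reads with BRM014 and 7 with DMSO. H2BC12 had 31.8, 28.3 and 32.0 TPM with BRM014 and 24.1, 23.0 and 26.2 TPM with DMSO (0.32 ± 0.12). Leaving out single libraries gave counts of 1 to 4 in KOPT-K1, the highest without DMSO replicate 3. H2BC12 was called in each of these 3 lines.

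Few differences between the lines' responses were called. The effect in KOPT-K1 minus that in CCRF-CEM called no member higher or lower, where 9.72% of all genes were higher and 8.62% lower. There was 1 higher and no lower member at an unadjusted p under 0.05, limma-voom called none, and 2 were lower with the replicate block. TALL-1 minus CCRF-CEM called 2 higher and none lower, H2BC5 (0.72 ± 0.23) and H2BC18 (0.64 ± 0.19), where 9.85% of all genes were higher and 10.5% lower. H2BC5 had 12.2, 9.46 and 11.1 TPM with BRM014 and 6.68, 5.94 and 7.89 TPM with DMSO in TALL-1 cells, and 2.53, 3.87 and 3.73 TPM with BRM014 and 4.05, 3.03 and 4.04 TPM with DMSO in CCRF-CEM cells. TALL-1 minus KOPT-K1 called H2BC12 higher (0.52 ± 0.17) and none lower, where 10.1% of all genes were higher and 11.2% lower. At an unadjusted p under 0.05 there was 1 lower member in TALL-1 minus CCRF-CEM and none in TALL-1 minus KOPT-K1, and limma-voom called none in the first of these and 1 higher in the second. These 3 differences reuse the same libraries, and none of the 3 calls was kept through every left-out library, with counts of 0 to 3 for TALL-1 minus CCRF-CEM and 0 to 4 for TALL-1 minus KOPT-K1.

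Levels of single members differed widely between the lines. H2BC21 had 34.8 to 39.3 TPM with BRM014 and 19.6 to 27.0 TPM with DMSO in TALL-1 cells, and 0.257 to 1.55 TPM over the CCRF-CEM and KOPT-K1 libraries, with no overlap. H2BC20P was at 0 to 0.555 TPM in TALL-1 libraries and 5.26 to 10.6 TPM in CCRF-CEM libraries. H2AC20 had 13.1 to 26.8 TPM in CCRF-CEM, 11.1 to 14.9 TPM in KOPT-K1 and 4.18 to 6.66 TPM in TALL-1 libraries, where CCRF-CEM and KOPT-K1 overlapped. H2BC9 was listed at 0 to 0.338 TPM in Jurkat libraries, with 5 reads over all 27, and at 33.8 to 68.9 TPM in the 18 other libraries, with 3363 reads. H2BC8 and H2AC8, also near 26 Mb of chromosome 6, had 11 and 14 reads over the Jurkat libraries and 208 and 243 over the others. Between Jurkat and the other lines, these H2BC9, H2BC8 and H2AC8 values differ in line, extraction and kit at once.

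Histone genes outside the replication-dependent set had their own pattern. H3-3A and H3-3B, which encode the replacement histone H3.3 from polyadenylated messages, rose in gSMARCA4_A2 cells by 0.75 ± 0.04 and 0.80 ± 0.08 and with BRM014 for 8 d by 0.64 ± 0.04 and 0.79 ± 0.08, whereas H3-3B fell by 0.35 (± 0.08) with BRM014 for 6 h. H2AZ1, the variant H2A.Z, fell by 0.65 (± 0.04) in gSMARCA4_A2 cells and by 0.62 (± 0.04) at 8 d, and H2AX, the variant marked at DNA breaks, fell by 0.33 (± 0.07) in gSMARCA4_A2 cells. Of 11 tested genes of this list, 6 rose and 4 fell in gSMARCA4_A2 cells. These values are limma estimates at an adjusted p under 0.05 over all genes.

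Genes that make and process histone messages were listed as well. SLBP, which binds the stem-loop, fell by 0.26 (± 0.07) in gSMARCA4_A2 cells and by 0.25 (± 0.10) in TALL-1 cells (adjusted p = 0.0490 in limma for TALL-1). It had log2 fold changes of -0.04 ± 0.07 at 8 d and 0.03 ± 0.07 in gSMARCA4 cells. In CCRF-CEM (0.17 ± 0.10) and KOPT-K1 cells (0.07 ± 0.10) SLBP had no call. NPAT, the coactivator of histone gene transcription, fell by 0.29 (± 0.05) at 8 d and by 0.19 (± 0.05) in gSMARCA4_A2 cells. CASP8AP2, its partner in histone locus bodies, had -0.16 ± 0.07 in gSMARCA4_A2 cells and fell by 0.27 (± 0.07) at 8 d. Other genes listed for histone gene transcription rose in gSMARCA4_A2 cells: CRAMP1 by 0.56 ± 0.04, E2F3 by 0.27 ± 0.05 and HINFP by 0.16 ± 0.06. In gSMARCA4_A2 cells 7 of 12 genes of histone gene transcription fell and 3 rose, 6 of 15 genes of histone mRNA processing and decay fell and 2 rose, and 10 of 20 histone chaperone genes fell and 4 rose, where 21.1% of all genes fell and 40.9% rose.

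Across the series, Jurkat libraries held 29.7 to 47.9 M reads and those of the other lines 19.7 to 27.0 M. T cell markers summed to 1224 to 1967 TPM in Jurkat and 2372 to 3437 TPM in the other lines. B cell markers summed to at most 1.56 TPM with MS4A1 at 0, myeloid markers to at most 0.966 TPM, and erythroid markers to at most 4.32 TPM with HBB at 0. In bulk libraries more RNA per cell and more cells that carry it cannot be told apart, and TPM are shares of the total of a library. Dividing each library by a median ratio moved the median of all genes in gSMARCA4_A2 cells to -0.03 from 0.11, and 27 members were then higher and 1 lower.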

How the data were processed

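Poly(A) RNA of 45 libraries was used, in 15 groups of 3. The authors deposited TPM for Jurkat and for the other 3 lines in separate tables, each library summing to 1000000. Per the submitters' processing notes, which give no role or order, HISAT2 2.2.1, featureCounts 2.0.3, DESeq2 1.38.2 and hg38 were used. Per the labels' protocols, Jurkat RNA and libraries were made with other kits (the Jurkat kit keeps no strand), so tests were run within a table.

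The members and gene lists were chosen with earlier results of these data known, including the list of members known for polyadenylated transcripts. A gene was tested in a table if 3 or more libraries there reached 1 TPM (17936 in Jurkat, 16241 in the other lines). limma 3.58.1 in R 4.3.3 was fitted to log2(TPM + 1) with 1 fit per table over all its groups, trend and robust moderation, and Benjamini-Hochberg adjustment over all genes tested, and 15 comparisons were made. Reads were recovered from TPM and the deposited gene lengths, where 100% of values came out whole within 0.01, and were used for depth and for a limma-voom alternative. A Jurkat library held 29.7 to 47.9 M recovered reads, and a library of another line held 19.7 to 27.0 M. The fit was tested on simulated data with known changes.

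Alternatives were another pseudocount, other filters, 2 rescalings, plain moderation, separate fits, a replicate block, limma-voom and leaving out each library. Same-numbered CCRF-CEM libraries deviated together (correlations of 0.119 to 0.447), which meets the threshold of 0.1 for pairing. In the other comparisons the lowest correlation was under 0.1, which does not exclude pairing. At 6 h in Jurkat cells the correlations were 0.172, 0.296 and 0.091. Values in every library were given for the members with the highest mean and for the called members with the largest changes, and other named genes come from the lists. Stem-loops were searched in GENCODE 29 transcripts and promoters are RefSeq sequences. H4C14 and H4C15, H2AC18 and H2AC19, and H3C14 and H3C15 are near-identical copies whose reads the counting could split, and the reads of members that overlap a gene on the other strand cannot be told apart in Jurkat.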

Additional observations from a re-analysis of the deposited data

Results flagged for a closer look

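Effects that differed between times or lines by a test of the difference itself (limma, adjusted p under 0.05 over all genes) were the following. The effect of BRM014 at 8 d minus that at 6 h in Jurkat cells was 1.72 for H2AC6, 1.16 for H2BC12, 1.02 for H1-2, 0.91 for H2BC5, 0.83 for H2BC15, 0.82 for H2AC7, 0.78 for H3C10, 0.76 for H2AC15, 0.68 for H2BC21 and 0.45 for H2AC17 on the log2 scale. For H1-3 it was -0.64. These were 10 of 42 members higher (23.8%) and 1 lower (2.38%), where 25.7% of all genes were higher and 18.5% lower. The BRM014 effect in TALL-1 minus that in CCRF-CEM was 0.64 for H2BC18 and 0.72 for H2BC5, and in TALL-1 minus KOPT-K1 it was 0.52 for H2BC12. These were 2 and 1 of 56 members, smaller shares than the 9.85% and 10.1% of all genes that were higher in these differences. Of the 10 positive differences between times, 6 were kept under every alternative, and none of the 3 differences between lines was.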

How the results depend on the processing

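Counts of histone genes called are given as higher or lower in a comparison, and no log2 fold change of a called member changed sign under the alternatives run. The cause of the changes in count was not tested, except that a filter of 5 TPM leaves 18 members in Jurkat and 24 in the other lines. With pseudocount 0.1, 2 were lower at 8 d, 2 higher in gARID1A_1B, 1 lower in gSMARCA4_A2, 1 lower in gARID1A_1B against gARID1A, 1 higher in KOPT-K1, 1 lower in TALL-1, and in the line differences 0 higher and 1 lower (TALL-1 minus CCRF-CEM) and 1 lower (TALL-1 minus KOPT-K1). With no filter, 1 was lower in gARID1A, 0 lower in gARID1A_1B, 1 lower in gSMARCA4_A2 against gSMARCA4, 2 lower at 8 d minus 6 h, 1 higher in KOPT-K1 and 1 higher in TALL-1 minus CCRF-CEM. With the 5 TPM filter, 17 were higher in gSMARCA4_A2 and 16 against gSMARCA4, 0 lower at 8 d and at 8 d minus 6 h, 1 higher in TALL-1 minus CCRF-CEM and 2 in TALL-1 minus KOPT-K1. With median-ratio rescaling, 2 were lower at 8 d, 1 in gARID1A, 0 in gARID1A_1B and 1 in gSMARCA4_A2, and 2 were higher in CCRF-CEM and 1 in KOPT-K1. With plain moderation, 0 were lower in gARID1A_1B and 1 higher in KOPT-K1. With only the groups of the comparison, 5 were higher at 6 h, 2 lower at 8 d, 0 lower in gARID1A_1B, 1 lower in gSMARCA4_A2, 1 lower in gARID1A_1B against gARID1A, 0 lower at 8 d minus 6 h, 1 lower in KOPT-K1 and in TALL-1, 1 higher in TALL-1 minus CCRF-CEM and 5 higher in TALL-1 minus KOPT-K1. With limma-voom, 2 were lower at 8 d, 1 in gARID1A, 0 in gARID1A_1B, 1 in gSMARCA4_A2 and 1 in TALL-1, while 6 were higher at 8 d minus 6 h and 0 in KOPT-K1 and in TALL-1 minus CCRF-CEM.

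With the replicate block, 2 were lower at 8 d and in gARID1A_1B, 1 lower in gSMARCA4_A2, in gARID1A_1B against gARID1A and in TALL-1, 2 lower in KOPT-K1 minus CCRF-CEM, 1 lower in TALL-1 minus CCRF-CEM, and 4 higher and 1 lower in TALL-1 minus KOPT-K1. In CCRF-CEM, where the threshold for pairing was met, the block gave 6 higher and 0 lower, against 4 and 0. In the other comparisons the lowest correlation of same-numbered libraries ranged up to 0.091, at 6 h in Jurkat, where all 3 numbers correlated best with their own. That was also so in gARID1A_1B against gAAVS1 and in KOPT-K1.

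Leaving out each library gave higher counts of 27 to 29 in gSMARCA4_A2, 13 to 16 in gSMARCA4, 18 to 24 against gSMARCA4, 1 to 5 in gARID1A_1B, 5 to 7 against gARID1A, 18 to 20 at 8 d, 5 to 9 at 6 h, 8 to 11 at 8 d minus 6 h, 4 to 13 in TALL-1, 3 to 4 in CCRF-CEM, 1 to 4 in KOPT-K1, 0 to 3 in TALL-1 minus CCRF-CEM and 0 to 4 in TALL-1 minus KOPT-K1. Lower counts were 0 to 1 in gSMARCA4_A2, at 6 h, in CCRF-CEM and in TALL-1 minus CCRF-CEM, 0 to 2 in gARID1A_1B, at 8 d and at 8 d minus 6 h, and 0 to 4 in gARID1A. Of the genes called higher, 25 of 28 in gSMARCA4_A2, 17 of 20 at 8 d, 11 of 15 in gSMARCA4, 15 of 26 in gSMARCA4_A2 against gSMARCA4, 4 of 8 in gARID1A_1B against gARID1A, 1 of 4 in gARID1A_1B, 3 of 9 at 6 h, 6 of 10 at 8 d minus 6 h, 3 of 7 in TALL-1, 1 of 4 in CCRF-CEM, 0 of 2 in KOPT-K1 and 0 of 3 between lines were kept under every alternative. None of the 3 genes called lower in gARID1A was. Members at a few reads a library are limited by depth.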
